A study of Mus musculus with 2 samples.

Results

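The complement genes described here are C1qa, C1qb and C1qc, C3, C4b, Cfd, Serping1, Cd55 and Cd59a, 9 of the 27998 gene names counted in single cells of the mouse aorta. They were taken by name as complement components and regulators and were followed through marker-defined classes of cells. The old library came from 1 C57BL6/J mouse aged 18 months and the young library from 1 C57BL6/J mouse aged 8 weeks, both untreated as far as the labels say. Each aorta was cleared of adventitia, its lumen was exposed to trypsin for 10 minutes, and the loosened surface was scraped off. From each, 8700 cells were loaded for droplet 3′ sequencing with a target of 5000. With 1 mouse and 1 library per age, the effects of age, animal and library cannot be told apart, no test between ages was made, and every interval given covers counting error only.

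Complement is a set of plasma and membrane proteins that tags and destroys targets. In the classical pathway the C1q complex, built from the C1qa, C1qb and C1qc chains, binds a target and its partner proteases cleave C4 and C2, which leads to cleavage of C3. Factor D, encoded by Cfd, starts the alternative pathway by cleaving factor B. The C1 inhibitor encoded by Serping1 blocks the C1 proteases, CD55 speeds the decay of the enzymes that cleave C3, and CD59 blocks the terminal pore. Tissue macrophages are a known source of C1q, fibroblasts are known to make C3 and C1 inhibitor, and endothelial cells carry membrane regulators that protect them from their own plasma.

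The 3 C1q genes lie side by side within 18675 bases of chromosome 4 on the minus strand of GRCm38, C1qb at 136880129 to 136886187, C1qc at 136889804 to 136893065 and C1qa at 136895917 to 136898803. On the minus strand lie also C3 (chromosome 17, 57203970 to 57228136), C4b (chromosome 17, 34728380 to 34743882), Serping1 (chromosome 2, 84765387 to 84775444) and Cd55 (chromosome 1, 130439027 to 130462744). Cfd (chromosome 10, 79890853 to 79892655) and Cd59a (chromosome 2, 104095801 to 104115354) lie on the plus strand, and all 9 are protein-coding genes in GENCODE vM21. Promoter windows from RefSeq, assembly GRCm38.p6, were found for 6 of the 9 genes and none was matched for C1qa, C4b and Serping1. The windows shown are those of C1qb and C1qc, which follow each other across cell classes below, and of C3, which follows another class. They are C1qb at chr4:136886201-136886450, C1qc at chr4:136893066-136893164 (shortened to the bases outside annotated exons) and C3 at chr17:57228137-57228386, all read on the minus strand. Capitals mark matches to the motifs searched on both strands.
C1qb: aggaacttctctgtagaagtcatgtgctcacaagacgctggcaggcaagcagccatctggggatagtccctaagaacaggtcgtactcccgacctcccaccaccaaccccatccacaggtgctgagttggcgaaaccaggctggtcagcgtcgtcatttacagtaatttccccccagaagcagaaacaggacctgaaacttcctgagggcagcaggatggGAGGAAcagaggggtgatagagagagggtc
C1qc: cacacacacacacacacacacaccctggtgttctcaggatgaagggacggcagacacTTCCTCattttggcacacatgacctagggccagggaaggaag
C3: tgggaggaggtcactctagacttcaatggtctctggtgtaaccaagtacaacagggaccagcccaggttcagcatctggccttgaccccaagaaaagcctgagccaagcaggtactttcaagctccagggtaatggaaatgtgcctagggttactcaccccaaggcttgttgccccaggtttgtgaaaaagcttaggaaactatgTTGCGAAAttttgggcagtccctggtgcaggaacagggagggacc

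The C1qb window held the ETS or PU.1 core GAGGAA 30 bases upstream of the RefSeq start, and the C1qc window held it on the other strand, 193 bases upstream. This core occurred in 23.25% of 32851 promoter windows. The C3 window held the C/EBP core TTNNGCAA on the other strand, 45 bases upstream, a motif in 9.564% of windows. The other motifs searched were an interferon gamma site TTCNNNGAA (7.02% of windows), an interferon response core GAAANNGAA (7.129%) and an NF-kB core GGGNNTTCC (4.977%), and none of them matched in the 3 windows shown. A match is only a match of letters.

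The files held 3408 old and 1366 young barcodes with 19171045 and 12576023 UMIs (molecules counted by their tags), medians of 4737 and 7558.5 UMIs per barcode, and 11 barcodes in common. After filtering, 3330 old and 1359 young cells were clustered without the complement genes and clusters were named by fixed markers. Endothelial-like (EC-like) cells numbered 2383 in old and 1081 in young, fibroblast-like cells 572 and 239, and macrophage-like cells 155 and 13. All 10 EC markers and all 8 fibroblast markers were seen in their own class in both libraries, and so were 10 macrophage markers in old and 9 in young, where Ms4a7 had 0 UMIs. The EC-like clusters were split by library: cluster 1 held 910 old and 10 young cells, and cluster 8 held 3 old and 402 young cells. Levels below are UMIs of a gene per 1000000 UMIs of that class in that library (CPM), and compare 1 gene between groups, not different genes.

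**Figure D1:**
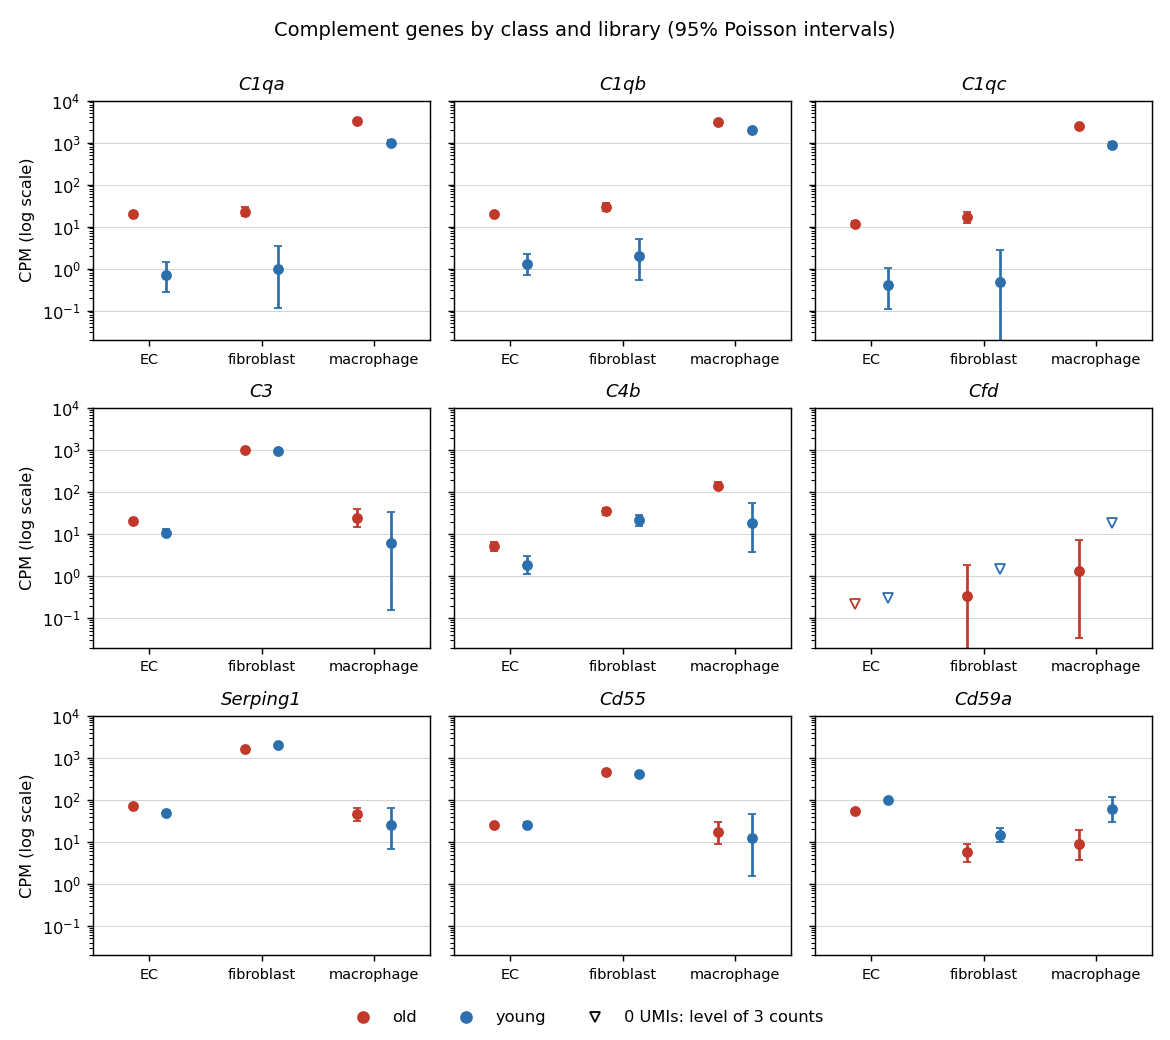
Level of each complement gene by class and library, as CPM on a log axis, with exact 95% Poisson intervals. The C1q genes stand highest in macrophage-like cells, C3, Serping1 and Cd55 in fibroblast-like cells, and Cd59a in old and young EC-like cells, at 55.1 and 100 CPM.

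The C1q genes were genes of the macrophage-like cells, which held 87.3% of old and 94.5% of young C1qa UMIs, 85.8% and 94.5% of C1qb UMIs, and 88.7% and 96.6% of C1qc UMIs. In macrophage-like cells C1qa stood at 3308 CPM in old and 968 CPM in young, C1qb at 3073 and 1936 CPM, and C1qc at 2411 and 881 CPM. On the log2 scale, old over young was 1.77 for C1qa (95% interval 1.54 to 2.02), 0.67 for C1qb (0.50 to 0.84) and 1.45 for C1qc (1.21 to 1.71). All 3 chains were thus higher in the old library, C1qb by the smallest ratio. Fcna, a ficolin gene whose product recognises targets for the lectin pathway, stood at 341 and 49.6 CPM (log2 2.78, 1.78 to 4.01).

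The young C1q level rested on very few cells. C1q UMIs of any chain were seen in 132 of 155 old and 6 of 13 young macrophage-like cells. A single young cell held 367 of the 610 young C1q UMIs (60.2%) and had 33990 UMIs in all, whereas the highest old cell held 166 of 6735 (2.46%). All 3 chains were seen together in 109 old cells (70.3%) and 4 young cells (30.8%), and no chain in 23 old and 7 young cells. When every cell was given equal weight, the log2 ratios were 2.24 for C1qa, 1.37 for C1qb and 1.94 for C1qc. Classes taken from a marker rule applied to each cell gave 2.42, 1.41 and 1.88.

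The 3 chains made up different shares of C1q in the 2 libraries. C1qa, C1qb and C1qc gave 37.6%, 35.0% and 27.4% of the C1q UMIs of old macrophage-like cells, against 25.6%, 51.1% and 23.3% in young ones. The share of C1qb had exact 95% intervals of 33.8% to 36.1% in old and 47.1% to 55.2% in young. In the young cell that held most C1q, 197 of the 367 UMIs were C1qb. Among the markers that defined the class, Lyz2 stood at 7696 CPM in old and 8419 CPM in young (log2 −0.13) and Csf1r at 475 and 168 CPM (1.504). Lyz2 was the only marker lower in old. The others were higher, from Fcer1g (0.27) up to Csf1r, and Ms4a7 had 171 and 0 UMIs. The interval of Mrc1 (0.40, −0.09 to 0.94) includes 0. Of the 10 EC markers 9 were seen in both, Kdr being at 0, and they summed to 1585 CPM in old and 2736 CPM in young macrophage-like cells, 18.6% and 30.9% of the level in EC-like cells, and the part of this RNA in the C1q ratios was not tested.

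C1q was also counted in old cells outside the macrophage-like class, at far lower levels. In EC-like cells C1qa stood at 19.9 CPM in old and 0.696 CPM in young (log2 4.84, 3.77 to 6.16), C1qb at 19.8 and 1.29 CPM (3.94, 3.14 to 4.86) and C1qc at 11.6 and 0.398 CPM (4.86, 3.48 to 6.76). In fibroblast-like cells C1qa stood at 22.6 and 0.972 CPM, C1qb at 28.6 and 1.94 CPM and C1qc at 16.6 and 0.486 CPM. The young values rest on 1 to 13 UMIs. Across the 9 old clusters of at least 20 cells outside the macrophage-like class, C1qa ranged from 12.1 to 22.9 CPM, C1qb from 7.32 to 30.2 CPM and C1qc from 6.05 to 29.3 CPM, so at least 1 UMI of every chain was counted in each. The ends at 7.32 and 6.05 CPM rest on 1 UMI each, that at 12.1 CPM on 2 and that at 29.3 CPM on 4. The 11 old smooth muscle cells, too few to enter these ranges, stood at 91.7, 122 and 107 CPM from 6, 8 and 7 UMIs. In the 6 such young clusters the highest levels were 7.13, 4.06 and 0.747 CPM. In the 3 EC-like clusters with at least 20 cells in both libraries, young cells held at most 5 UMIs of any chain. Of the 9 values 4 were 0 UMIs, so these ratios rest on few counts. In cluster 3 the log2 ratios were 6.17 for C1qa (1.903 to 12.05) and 6.17 for C1qc (3.36 to 9.63), from 1 to 4 UMIs. C1qa in cluster 0 had 62 old and 0 young UMIs, with a lower limit of 0.42. The intervals of the other EC-like values include 0. In fibroblast-like cluster 4 the ratios were 3.94, 4.34 and 4.46 for C1qa, C1qb and C1qc, with lower limits of 2.03, 2.44 and 1.91. In cluster 5 the lower limits were 1.65, 0.295 and 1.41, with 0, 2 and 0 young UMIs.

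Other macrophage genes were counted in the same classes. The old EC-like level was 0.601% of the old macrophage-like level for C1qa, 0.644% for C1qb and 0.480% for C1qc, and for the 10 macrophage markers it ranged from 0.254% to 2.37% with a median of 0.645%. In young the C1q values were 0.0719%, 0.0668% and 0.0452%, and the markers ranged from 0% to 2.60% with a median of 0.0650%. For old fibroblast-like cells the C1q values were 0.684%, 0.931% and 0.690%, and the markers ranged from 0.202% to 2.34% with a median of 0.766%. For young ones the C1q values were 0.100%, 0.100% and 0.0552%, and 6 of the 10 markers were at 0. All 10 macrophage markers were seen in old EC-like cells and 7 in young ones, where Csf1r, Adgre1 and Mrc1 were at 0, and their summed level was 93.1 and 15.02 CPM. C1q came to 55.0 UMIs per 100 macrophage marker UMIs in old EC-like cells, 60 in old fibroblast-like cells and 61.3 in old macrophage-like cells. In young cells these values were 15.9, 18.4 and 30.03. The chain shares of old EC-like cells were 38.8%, 38.6% and 22.6%. Red cell markers, mainly haemoglobin genes, summed to 604 CPM in old and 25.4 CPM in young EC-like cells.

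At an equal depth of 3100 UMIs per cell, C1qa was seen in 6.25% of old and 0.306% of young EC-like cells (unthinned 10.9% and 0.648%), and the macrophage gene Lyz2 in 12.8% and 1.53%. In macrophage-like cells at that depth C1qa was seen in 64.5% of old and 30.8% of young cells, and 559 old and 101 young EC-like cells were too shallow to be used. Median depths before thinning were 5003 and 7396 UMIs in EC-like cells and 4092 and 7079 UMIs in macrophage-like cells. When the 954 old and 138 young EC-like barcodes with any macrophage marker UMI were left out, C1qa stood at 20.5 CPM in old and 0.719 CPM in young. In fibroblast-like cells, with 206 old and 33 young barcodes left out, it stood at 15.1 and 0.581 CPM. The C1qa share in EC-like cells lay below that of Lyz2 in both libraries, and no reading of expression by EC-like or fibroblast-like cells is made from it.

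**Figure D2:**
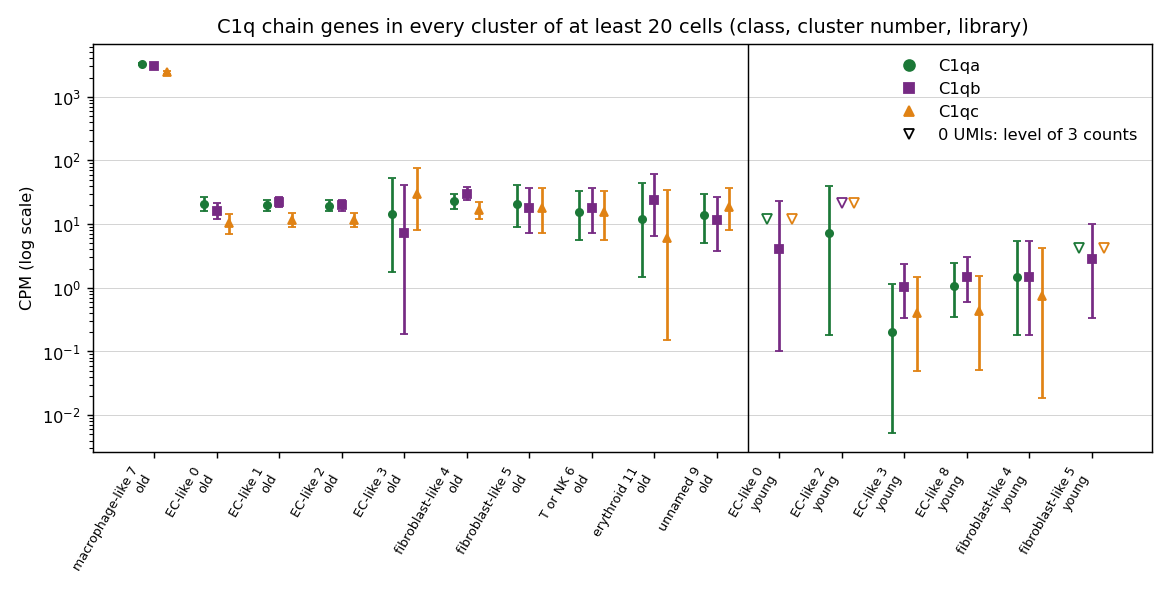
CPM of C1qa, C1qb and C1qc on a log axis in every cluster of at least 20 cells, with a line between old and young groups. The old macrophage-like cluster stands first, and its 13 young cells were too few to be drawn. The old clusters outside the macrophage-like class lie between 12.1 and 22.9 CPM for C1qa, 7.32 and 30.2 CPM for C1qb and 6.05 and 29.3 CPM for C1qc. Several ends of these ranges rest on 1 to 4 UMIs.

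C3, the central component that every pathway cleaves, was a gene of the fibroblast-like cells, at 1030 CPM in old and 942 CPM in young (log2 0.13, 0.05 to 0.21). These cells held 90.3% of old and 94.2% of young C3 UMIs. The level was 50.2-fold that of EC-like cells in old (20.5 CPM) and 86.9-fold in young (10.8 CPM). C3 was seen in 86.4% of old and 71.6% of young fibroblast-like cells at equal depth (unthinned 91.8% and 82.0%), and the median cell had 9.96 and 7.13 UMIs of C3 per 10000. The old and young levels were therefore near each other in this class, and the share of cells with a UMI was higher in old. In EC-like cells the log2 ratio was 0.92 (0.60 to 1.25). There the C3 level was 1.99% of the fibroblast-like level in old and 1.15% in young, inside the ranges of 7 fibroblast markers, 0.836% to 8.30% in old and 0.492% to 3.26% in young. The eighth, Pdgfrb, was at 127% and 91.1%, and all 8 summed to 385 CPM in old and 414 CPM in young EC-like cells. Within EC-like clusters present in both libraries the log2 ratios of C3 were 1.05 in cluster 0, −0.65 in cluster 2 and −0.56 in cluster 3, with intervals that all include 0 (3 and 4 young UMIs in the first and second, 1 old UMI in the last). In macrophage-like cells C3 had 19 UMIs in old and 1 in young.

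C4b, the component cleaved by the classical and lectin pathways, was the member shared most evenly between classes. Macrophage-like cells held 36.3% of its UMIs in old and 4.48% in young, fibroblast-like cells 35.0% and 67.2%, and EC-like cells 24.3% and 28.4%. It stood at 142 CPM in old and 18.6 CPM in young macrophage-like cells (109 and 3 UMIs, log2 2.93, 1.35 to 5.235). In fibroblast-like cells it stood at 34.9 and 21.9 CPM (0.68, 0.16 to 1.21), and in EC-like cells at 5.18 and 1.89 CPM (1.45, 0.71 to 2.27). The pooled level of C4b was thus higher in old in all 3 classes, by the smallest ratio in fibroblast-like cells. That rank was not kept with the 2 fibroblast-like clusters at equal weight, where the ratio was 1.71. Within EC-like clusters the direction was not kept: the ratio was −0.29 in cluster 0 (−2.33 to 2.85) and −1.79 in cluster 2 (−3.46 to 0.56), from 2 and 3 young UMIs, and cluster 3 held 0 old and 6 young UMIs. Old macrophage-like cells carried 4.07-fold the pooled fibroblast-like level, but not more than old fibroblast-like cluster 5, at 161 CPM (124 to 207). In young the macrophage-like level was 0.851-fold the pooled fibroblast-like level, from 3 macrophage-like UMIs. C4b was seen in 21.8% of old and 15.4% of young macrophage-like cells at equal depth, the young share being 2 of 13 cells. Of its 3′ 50-base stretches 23.9% are identical in C4a, its neighbour on chromosome 17, so reads of these genes may have been mixed or lost.

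Cfd, also known as adipsin and made chiefly by fat cells, had almost no counts. It had 1 UMI in old fibroblast-like cells, 1 in old macrophage-like cells and 0 in all young classes. No UMI was seen in 1824 old and 980 young EC-like cells at equal depth, which allows shares of cells with a UMI of up to 0.164% and 0.306% at 3 counts, with exact upper limits of 0.202% and 0.376%. The 5 adipocyte markers (Adipoq, Plin1, Cidec, Retn and Lep) were at 0 UMIs in the 3 classes of both libraries.

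Serping1 was likewise a gene of the fibroblast-like cells, at 1666 CPM in old and 2072 CPM in young (log2 −0.31, −0.37 to −0.26). It was seen in 96.2% of old and 99.1% of young cells of this class at equal depth. In EC-like cells it stood at 73.0 and 48.4 CPM (0.59, 0.43 to 0.75), so the 2 classes had ratios of opposite sign. The difference between the classes was not tested. The EC-like level was 4.38% of the fibroblast-like level in old and 2.34% in young, again inside the range of the 7 fibroblast markers. When 833 old and 647 young EC-like barcodes with a UMI of Col1a1, Col3a1, Pdgfra, Lum or Dpt were left out, it stood at 73.3 and 48.1 CPM. Within EC-like clusters present in both libraries the log2 ratios were −0.38 in cluster 0, 0.37 in cluster 2 and 0.09 in cluster 3, with intervals that all include 0. The part of fibroblast RNA in the EC-like level was not tested further.

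Cd55 stood at 462 CPM in old and 410 CPM in young fibroblast-like cells (log2 0.17, 0.05 to 0.30) and at 25.4 and 25.9 CPM in EC-like cells (−0.03, −0.26 to 0.21). Cells of the fibroblast-like class differed widely in it: 175 of 572 old and 89 of 239 young cells had 0 UMIs, and the 10% of cells with the most Cd55 held 45.1% and 50.5% of the UMIs. T or NK cells, named from their markers and mixed with some B cell genes, had 94.5 CPM in old, from 37 UMIs. Of its 3′ 50-base stretches 11.4% are shared with the neighbouring Cd55b.

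Of the 3 classes, EC-like cells had the highest level of Cd59a, at 55.1 CPM in old and 100 CPM in young (log2 −0.86, −0.999 to −0.73). Fibroblast-like cells had 5.66 and 14.6 CPM from 17 and 30 UMIs, a level 9.75-fold lower than in EC-like cells in old and 6.87-fold lower in young. The fibroblast-like level was 10.3% of the EC-like level in old and 14.5% in young, where EC markers ranged from 7.95% to 29.96% in old and from 2.98% to 45.8% in young. Cd59a was seen in 16.7% of old and 25.8% of young EC-like cells at equal depth (unthinned 26.0% and 50.5%). Among EC-like clusters it stood at 67.3 CPM in cluster 0, 42.2 CPM in cluster 1, 60.9 CPM in cluster 2 and 80.5 CPM in cluster 3 of old cells, the last from 11 UMIs. Young cells had 106 CPM in cluster 0, 57.0 CPM in cluster 2, 89.7 CPM in cluster 3 and 113 CPM in cluster 8. The lowest old level was that of cluster 1, which is nearly all old, and the highest young level that of cluster 8, which is nearly all young. Within clusters present in both libraries the log2 ratios were −0.65 in cluster 0 (−1.245 to −0.003), 0.09 in cluster 2 and −0.15 in cluster 3, the intervals of the last 2 including 0. Outside the 3 classes, Cd59a stood at 71.3 CPM in old and 84.2 CPM in young cells of the unnamed cluster and at 107 CPM in old smooth muscle cells, from 7 UMIs.

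**Figure D3:**
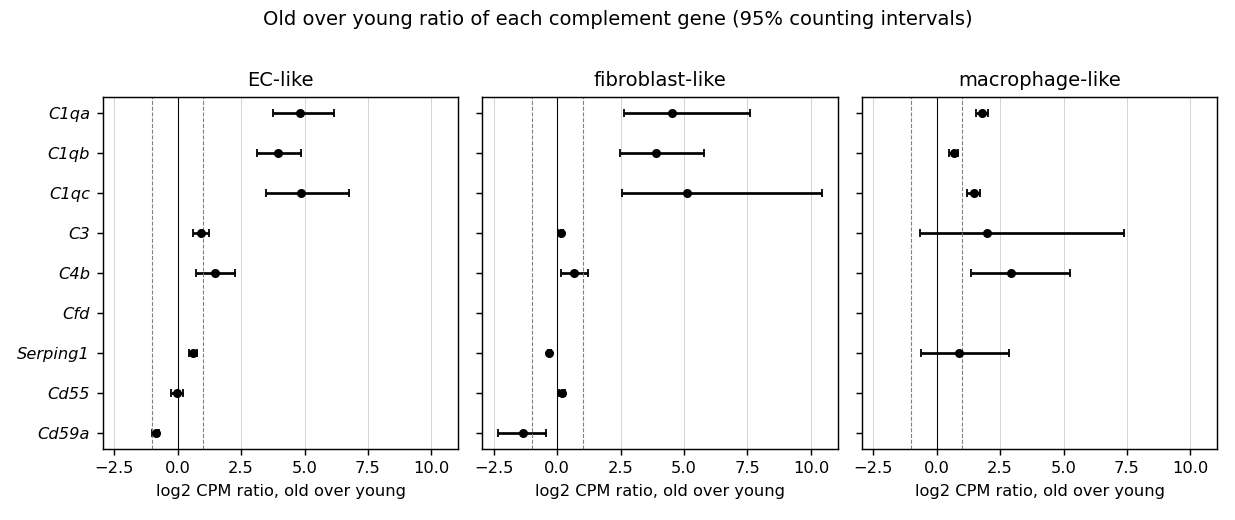
Log2 ratio of old over young for each complement gene with at least 20 UMIs over both libraries, by class, with exact 95% intervals for counting error and dashed lines at 2-fold. The C1q genes lie above 1 in EC-like and fibroblast-like cells, and Cd59a lies below 0 in both.

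Read over the list, 4 of the 8 genes measured in EC-like cells (C1qa, C1qb, C1qc and C4b) were at least 2-fold higher in old and 0 at least 2-fold lower, where 3.71% and 3.33% of 12017 genes were. In fibroblast-like cells the 3 C1q genes were higher and Cd59a lower, of 8 measured, against 3.57% and 4.99% of 10185 genes. The C1q genes enter the counts and medians of both classes at old levels of 0.480% to 0.931% of the macrophage-like level. No reading of expression by these 2 classes is made from them. C4b in EC-like cells had ratios of −0.29 and −1.79 within clusters 0 and 2, both intervals including 0. In macrophage-like cells C1qa, C1qc, C4b and C3 were at least 2-fold higher and 0 lower, of 6 measured, against 9.60% and 9.41% of 5220 genes, and C3 rested on 20 UMIs in all. The median log2 ratio of the members was 1.19 in EC-like, 0.42 in fibroblast-like and 1.61 in macrophage-like cells, beside 0.07, −0.10 and −0.06 for all genes measured. Between classes, C3, C4b, Serping1 and Cd55 were at least 2-fold higher in fibroblast-like than in EC-like cells of the old library (11.4% of 11961 genes) and of the young library (12.8% of 11479 genes). Cd59a was at least 2-fold lower in both, as were 21.1% and 18.1% of genes. C1qa, C1qb, C1qc and C4b were at least 2-fold higher in old macrophage-like than EC-like cells (12.5% of 11745 genes) and Cd59a at least 2-fold lower (28.5%).

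The fibroblast-like class was made of 2 clusters that differed in Cd55 and C4b. Cluster 5, led by F3, Gdf10 and Mfap4, held 13.99% of old (11.2% to 17.1%) and 42.7% of young (36.3% to 49.2%) fibroblast-like cells, and cluster 4, led by Ccl11, Dact2 and Igfbp5, held the rest. Cd55 stood at 48.7 CPM in cluster 5 and 524 CPM in cluster 4 of old cells, 10.8-fold lower in cluster 5, and at 59.8 and 598 CPM in young cells, 9.99-fold lower. C4b stood at 161 CPM in cluster 5 and 16.1 CPM in cluster 4 of old cells (log2 3.33, 2.74 to 3.93), and at 44.5 and 9.71 CPM in young cells (2.20, 1.23 to 3.25). Both libraries thus showed the same 2 contrasts. C3 did not separate the clusters, at 999 and 1034 CPM in old and 907 and 961 CPM in young cells. Serping1 stood at 1740 and 1655 CPM in old (log2 0.07, −0.05 to 0.19) and at 2528 and 1827 CPM in young cells (0.47, 0.38 to 0.56).

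Because the mix of clusters differed between the libraries, ratios within clusters were set beside the pooled ones. For Cd55 the log2 ratio of old over young was −0.19 in cluster 4 (−0.32 to −0.06) and −0.30 in cluster 5 (−1.16 to 0.51), opposite in sign to the pooled 0.17, and with both clusters at equal weight it was −0.20. For C4b it was 0.73 in cluster 4 (−0.20 to 1.75, which includes 0) and 1.86 in cluster 5 (1.22 to 2.52), with 1.71 at equal weight. Serping1 was lower in old in both, at −0.14 in cluster 4 and −0.54 in cluster 5. C3 was near even, at 0.11 and 0.14.

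**Figure D4:**
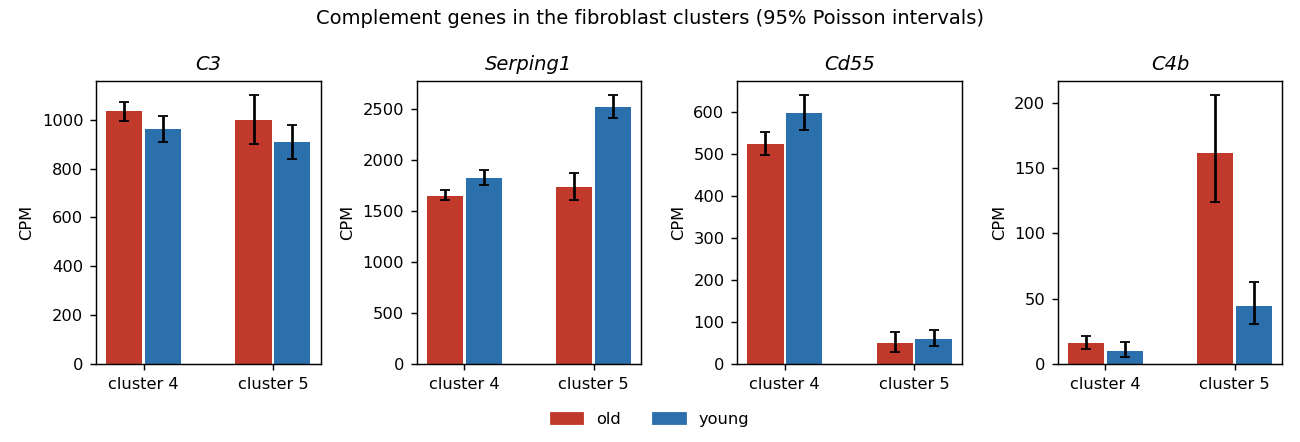
CPM of C3, C4b, Serping1 and Cd55 in the 2 fibroblast-like clusters, old and young, as bars on a linear axis with exact 95% Poisson intervals. Cd55 is about 10-fold lower and C4b higher in cluster 5 in both libraries.

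The other complement genes were read from a list of 47 names in the files beside the 9 members. In EC-like cells 19 had at least 20 UMIs, of which 3 were at least 2-fold higher and 3 at least 2-fold lower in old, against 3.71% and 3.33% of all genes, with a median log2 ratio of 0.12 beside 0.07 for all genes. These were Fcna, Cfi and Cd46, and Cfb, C1rb and Cfhr2, all below 10 CPM. Clu, a soluble blocker of the terminal pore, was abundant in EC-like cells, at 3080 CPM in old and 3444 CPM in young (log2 −0.16), 7.69-fold and 12.4-fold the fibroblast-like level. The receptor-like gene Cd93 (379 and 407 CPM) and the membrane regulator Cr1l (134 and 151 CPM) had ratios of −0.10 and −0.17. The highest ratios among genes with at least 100 UMIs were those of Colec11 (0.41) and C1s1 (0.39), and the lowest those of Cfb (−1.17, 3.26 and 7.36 CPM) and C1ra (−0.57, 63.2 and 94.2 CPM). Within clusters 0, 2 and 3 the ratio of C1ra was 0.34, −0.88 and 0.22, and only the interval of cluster 2 (−1.56 to −0.11) excludes 0. Cfb had −1.36 in cluster 0 and 1.85 in cluster 3, both intervals including 0, and 9 old and 0 young UMIs in cluster 2. Cluster 8, nearly all young, held 60 young UMIs of Cfb (12.8 CPM). Fcna had 28 UMIs in old and 0 in young EC-like cells. Calr and C1qbp, whose products can bind C1q, stood at 541 and 584 CPM (−0.11) and at 79.1 and 73.0 CPM (0.12, −0.02 to 0.25).

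In fibroblast-like cells 13 of the 47 genes were measured, of which 0 were at least 2-fold higher and 4 at least 2-fold lower in old, against 3.57% and 4.99% of all genes, with a median of −0.59 beside −0.10 for all genes. The C1 proteases C1ra and C1s1, which Serping1 inhibits, stood at 155 and 280 CPM (log2 −0.85, −1.03 to −0.67) and at 225 and 379 CPM (−0.75, −0.90 to −0.60). Cfb, the alternative pathway partner of C3, stood at 19.6 CPM in old and 64.65 CPM in young (−1.72, −2.19 to −1.27). The highest ratios were those of Cd93 (0.61) and Clu (0.52, 401 and 279 CPM). Both genes are higher in EC-like cells. EC markers summed to 1001 CPM in old and 534 CPM in young fibroblast-like cells, and the part of EC RNA in these ratios was not tested. The scavenger receptor Lrp1 stood at 369 and 556 CPM (−0.59). C2, C7 and C1rb were the other genes at least 2-fold lower, named after their values were seen, with ratios of −1.15, −3.48 and −2.79 from 33 and 50, 3 and 23, and 4 and 19 UMIs in old and young. Within clusters 4 and 5 the ratios were −0.79 and −0.80 for C1ra, −0.64 and −0.70 for C1s1 and −0.97 and −1.86 for Cfb. For C2 they were −0.55 (−1.72 to 0.66) and −0.28 (−1.20 to 0.58). C7 had 0 old and 4 young UMIs in cluster 4 and a ratio of −1.78 (−4.18 to −0.02) in cluster 5, and C1rb had −2.29 (−4.42 to −0.49) in cluster 4 and 0 old and 9 young UMIs in cluster 5. Reads of C1ra, C1s1, C2 and Cfb may be mixed with those of C1rb, C1s2 and, for C2 and Cfb, the overlapping Gm20547, which share 19.1%, 27.2%, 24.2% and 71.0% of their 3′ 50-base stretches.

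In macrophage-like cells 15 of the 47 genes were measured, of which 6 were at least 2-fold higher and 0 at least 2-fold lower in old, against 9.60% and 9.41% of all genes, with a median of −0.22 beside −0.06 for all genes. The higher ones were Fcna, C5ar1, C3ar1, Colec12, Itgax and Vsig4, the last with 31 UMIs in old and 0 in young, and the intervals of Colec12 (−0.32 to 4.77) and Itgax (−0.24 to 3.75) include 0. The anaphylatoxin receptor genes C5ar1 and C3ar1 stood at 168 and 31.0 CPM (129 and 5 UMIs, log2 2.44, 1.18 to 4.09) and at 128 and 31.0 CPM (98 and 5 UMIs, 2.04, 0.77 to 3.70). Cfp, which stabilises the alternative pathway enzyme, stood at 390 and 571 CPM (−0.55, −0.89 to −0.20). The complement receptor chains Itgam (118 and 136 CPM) and Itgb2 (119 and 199 CPM) had ratios of −0.22 and −0.74. After Itgb2 the lowest ratio was that of Clu, at 621 and 980 CPM (−0.66). Clu is high in EC-like cells, whose markers were also higher in the young macrophage-like cells, and the part of EC RNA in this ratio was not tested.

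**Figure D5:**
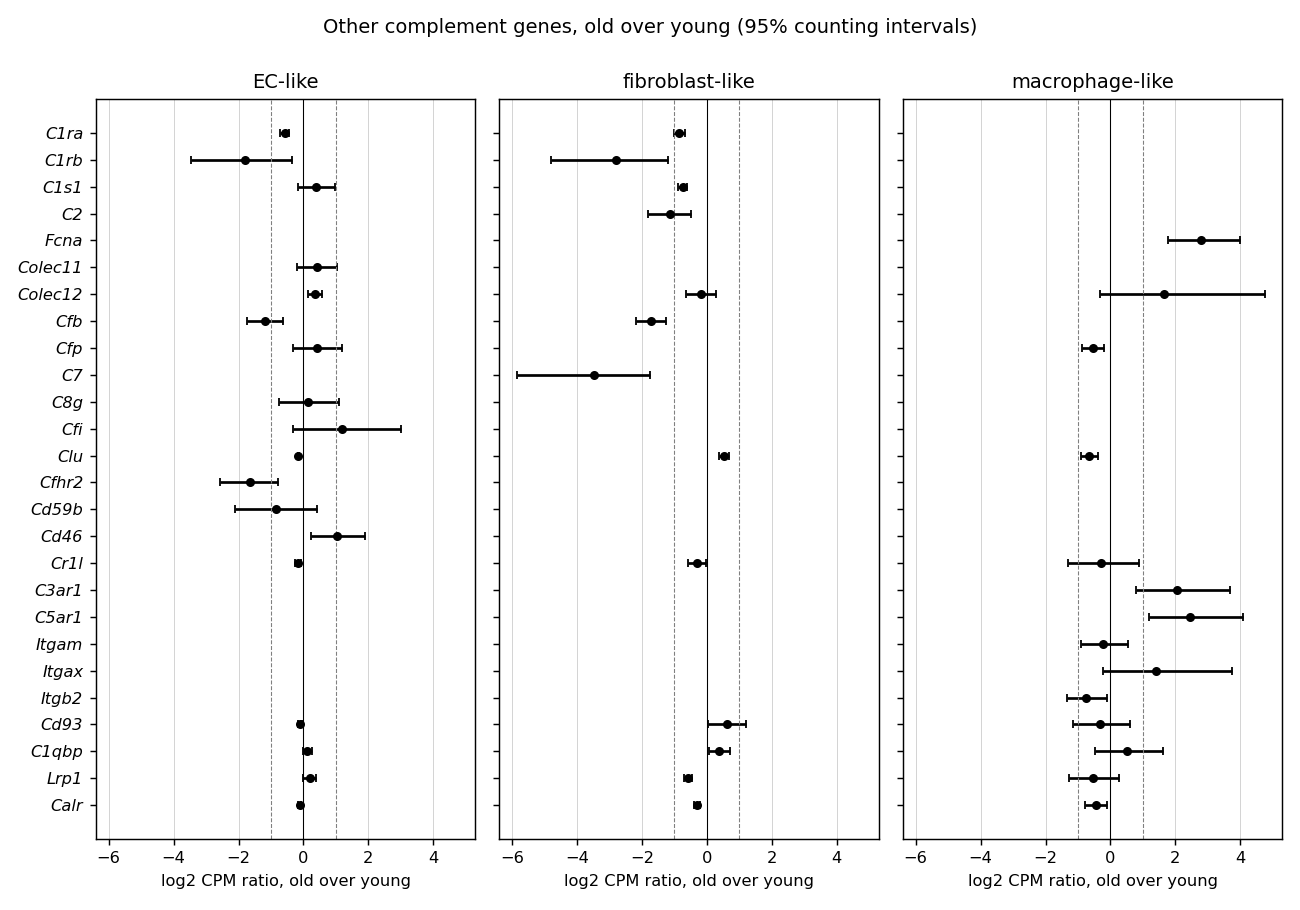
Log2 ratio of old over young for the other complement genes with at least 20 UMIs, by class, with exact 95% intervals for counting error and dashed lines at 2-fold. Pooled over the clusters of a class, Cfb and C1ra lie below 0 in EC-like and fibroblast-like cells. Genes with 0 UMIs in the young class, such as Fcna in EC-like cells, are not drawn.

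Genes most like each member were sought among 10288 genes by the Pearson correlation of log2(CPM + 1) over 16 groups, each a cluster of at least 20 cells in 1 library, so that several groups share a library and a depth. C1qa was nearest to Wfdc17 (r 0.97), C1qb to Retnla (0.96) and C1qc to Ccl6 (0.98), which all lead the macrophage-like cluster. That cluster enters with its old cells alone, as its 13 young cells are too few. The C1q correlations thus rest largely on that group, which lies far above the others. C3 was nearest to Col14a1 (0.98) and Lama2 (0.97), and next came Serping1 (0.97). Serping1 was nearest to Nbl1 (0.98) and Tnxb (0.98), Cd55 to Efhd1 (0.94) and Fgf2 (0.92), and Cd59a to Bmp4 (0.96) and Fas (0.96). C4b had no gene as near, Cd44 being first at 0.84.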

How the data were processed

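Each file holds raw UMI counts per gene name and barcode, as the authors deposited them. Per the submitters' processing notes they used Cell Ranger and the GRCm38 genome, and the version and annotation behind the counts were not given in the sources used here. Counts were checked to be whole. Introns, strand and filters of that step can move every level and are not known.

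A barcode was kept if it had 200 genes or more and no more than 10% of its UMIs were mitochondrial, so 72 old and 1 young barcodes fell out. Scrublet in scanpy 1.11.5 called 6 old (0.180%) and 6 young (0.440%) barcodes, which were removed, too few for it to have served as a doublet filter. Both libraries were clustered jointly, with no batch correction and with the complement genes left out, on logs of values per 10000 UMIs (2000 variable genes, 30 components, 15 neighbours, Leiden resolution 0.5, igraph 0.11.9). A cluster took the name of a class when at least 3 of its markers were seen in 25% of its cells and its top 10 genes by fold did not hold more markers of another class, the fold taken against clusters of other names. C1q genes are not among the markers. Other clusters held 123 old and 10 young T or NK cells, 37 and 1 erythroid cells, 11 and 0 smooth muscle cells, and 49 and 15 cells of an unnamed cluster led by Ccl21a, Ppbp and Mmrn1.

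UMIs were summed per class and library and scaled to CPM. Ratios carry exact conditional binomial 95% intervals, levels exact Poisson intervals and shares exact Clopper-Pearson intervals (scipy 1.17.1, numpy 2.4.6, pandas 2.3.3, Python 3.11.15, matplotlib 3.10.9). A gene counts as measured with at least 20 UMIs over both libraries and is counted as higher or lower from 2-fold on. Zeros were set at 3 counts in the 2-fold calls, in their shares over all genes, in list medians and in means of within-cluster ratios. The ratio step was tested on simulated data with 12017 genes, 200 of them changed: 95.56% of the intervals held the true ratio. The simulated sums were Poisson counts, the model behind the intervals, so this checked the code alone. It cannot show whether the intervals are wide enough for real counts that gather in few cells. For shares at equal depth each cell was thinned to 3100 UMIs, and shallower cells were left out. Coordinates and shared 3′ stretches (50-base words of the last 500 bases) are from GENCODE vM21 on GRCm38. C4a was not analysed here, and 1 further gene of the wider list is not reported here. Members, lists and markers were chosen with earlier results of these data known. From the wider list the text names, per class, the 2 highest and 2 lowest ratios among genes with at least 100 UMIs and genes at 50 CPM or more in a class and library, and for each member up to 3 genes of like pattern. Alternatives were another cell filter, doublet calls kept, another resolution, complement genes allowed in the clustering, a marker rule per cell, other scalings, equal depth, mean over cells, ratios within clusters, other UMI minimums and barcodes with macrophage markers left out. 2 more were chosen after seeing the data: EC-like barcodes with a fibroblast marker left out, and fibroblast clusters at equal weight.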

Additional observations from a re-analysis of the deposited data

Results flagged for a closer look

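Serping1 had ratios of opposite sign in 2 classes, a log2 ratio of old over young of 0.59 in EC-like cells and −0.31 in fibroblast-like cells. The difference between them was not tested.

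Complement UMIs were also seen in the 78 old and 7 young barcodes that the filter and the doublet calls left out of every class. The old ones held 71 UMIs of C1qa, 63 of C1qb, 66 of C1qc, 44 of C3, 4 of C4b, 39 of Serping1, 15 of Cd55 and 8 of Cd59a. The young ones held 15 UMIs of C3, 14 of Serping1, 7 of Cd55 and 8 of Cd59a, and none of the C1q genes.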

How the results depend on the processing

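Of 249 recomputed ratios of old over young, 215 moved by no more than their counting interval, 31 moved further and 3 changed sign. Of 271 ratios between classes, 242, 28 and 1 did so, and of 76 counts of members, 72 stayed within 1.5 times and 4 did not. Sign changes were counted only where the interval of the main ratio excluded 0, and only those are listed next. Ratios with an interval that includes 0 were sorted by that interval alone, whatever their sign. The sign changed for C3 in EC-like cells (−0.051 against 0.92) and Cd55 in fibroblast-like cells (−0.24 against 0.17) when ratios were averaged within clusters, the first resting on 3 and 4 young UMIs and 1 old UMI. It also changed for Cd55 with fibroblast clusters at equal weight (−0.20), and for C1qb in old fibroblast-like over EC-like cells under the stricter cell filter (−0.10 against 0.53). With at least 100 UMIs, the fibroblast-like counts became 0 higher and 0 lower, since the C1q genes and Cd59a have fewer than 100 UMIs there over both libraries. The lower count was also 0 at equal depth, and without a minimum of UMIs the macrophage-like count was 1 lower (Cd59a). No paired analysis was possible because each age has 1 library, and for the same reason no library could be left out. The 13 young macrophage-like cells limit every macrophage ratio.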
